A study of Mus musculus with 8 samples.

Results

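Cytosolic ribosomal protein genes were measured by RNA-seq in 5 mouse glioblastomas and 3 normal mouse brains. A lentiviral vector with the oncogene HrasG12V and a short hairpin RNA against p53 had been used to induce the tumours. They were collected from mice at clinical endpoint, after the surrounding brain had been cut away from the GFP+ tumour under magnification. The normal brains are given only as normal mouse brain. The sources used here do not state the strain, age, sex or brain region, the promoters of the vector or the cells it entered. The labels do not say whether each sample is a separate animal; the p-values therefore measure only how these samples spread. Members were all genes whose symbol starts with Rpl, Rplp or Rps followed by a digit, without the S6 kinases. The rule found 95 genes among 23523 features. They comprised 43 genes of the large subunit, 30 of the small subunit, 3 of the stalk, 8 paralogs, 4 retrocopies, 6 genes with a pseudogene symbol, 2 of which have a coding accession, and Rps19bp1. Rps19bp1 matched by its symbol only: it encodes a protein that binds Rps19 and Sirt1 and is no subunit (log2 fold change, glioblastoma over normal brain, 1.20 ± 0.21, SE; edgeR adjusted p = 0.000793).

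A ribosome joins a small subunit, which reads the mRNA, and a large subunit, which forms peptide bonds. Each is built in the nucleolus from ribosomal RNA and from proteins encoded by single genes scattered over the genome. The mRNAs of these proteins begin with a run of pyrimidines, the TOP sequence, through which mTOR and Larp1 control their translation. They rank among the most abundant mRNAs of growing cells, and many have processed pseudogene copies. Free Rpl5 and Rpl11 bind Mdm2, the ubiquitin ligase of p53, when ribosome assembly fails.

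Libraries held 5490356 to 15564279 fragments assigned to transcripts, so that 3 fragments, the most that a count of 0 allows, corresponded to 0.193 to 0.546 CPM (counts scaled to the library total). Trp53, the target of the hairpin, had 2.95, 3.25, 5.92, 2.74 and 5.49 CPM in tumours 1 to 5, against 4.74, 7.21 and 4.91 CPM in brains 1 to 3, and did not pass the test (adjusted p = 0.262, edgeR). Hras averaged 413 ± 75.1 CPM in tumours (SD, n = 5) and 99.5 ± 4.61 CPM in brains (SD, n = 3). Of 10 neuronal markers, 7 were lower in the tumours and 0 higher, and their summed level was 784 to 1102 CPM in tumours against 8293 to 9254 CPM in brains. Of 8 markers of dividing cells, 8 were higher (589 to 1478 CPM in tumours, against 35.2 to 40.8 CPM in brains). Of 9 markers of macrophages and microglia, 8 were higher (1564 to 2930 CPM in tumours, against 248 to 263 CPM in brains), and all 8 oligodendrocyte markers were lower (261 to 932 CPM in tumours, against 3203 to 6240 CPM in brains). Of 7 astrocyte markers 3 were lower, 0 higher and 4 did not pass (914 to 2702 CPM in tumours, against 4747 to 5188 CPM in brains). Slc1a2 made up much of the brain sum, with means of 193 CPM in tumours and 3186 CPM in brains. Of the 4, Gfap, Gja1 and Aldh1l1 had higher means in tumours and S100b a lower mean. All 6 endothelial markers were higher (221 to 417 CPM in tumours, against 75.7 to 92.4 CPM in brains). Among all genes tested, 37.1% were higher and 33.9% lower. Opalin, of oligodendrocytes, was listed at 0 in tumour 2, and Ccnb1, of dividing cells, in brains 1 and 2. The filter on low counts asked for 1.32 CPM, without TMM factors, in 3 libraries. Cdk1, Ccnb1, Tyms, Arg1 and Ms4a7 did not reach this level in all 3 brains and passed only through the tumours. Rbfox3 and Opalin passed only through the brains. The part of this mix of cells in the ribosomal protein levels was not tested, and in these pieces of tissue fewer cells of a type and less RNA per cell cannot be told apart.

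Ribosomal protein mRNAs took a larger share of the tumour libraries. Member genes held 1.14, 1.13, 1.27, 0.996 and 0.935% of all fragments in tumours 1 to 5, against 0.274, 0.303 and 0.292% in brains 1 to 3. All 5 tumours lay above all 3 brains. The mean share was 1.09 ± 0.132% in tumours (SD, n = 5) and 0.290 ± 0.0150% in brains (SD, n = 3), a ratio of 3.78. Counting error was small beside this: the 95% Wilson interval of the share was 1.12 to 1.14% in tumour 2, the library with the fewest fragments. Of FPKM summed over all genes, which divides by transcript length, members held 2.37 ± 0.208% in tumours (SD, n = 5) and 0.882 ± 0.0386% in brains (SD, n = 3), a ratio of 2.69. The 78 mitochondrial ribosomal protein genes, whose products build the separate ribosome of mitochondria, held 0.287% of fragments in tumours and 0.189% in brains.

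**Figure D1:**
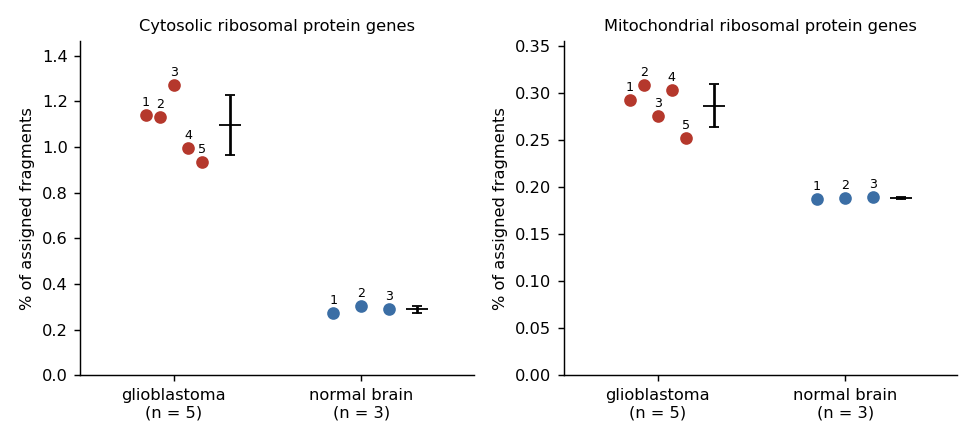
Share of each library's assigned fragments in cytosolic (left) and mitochondrial (right) ribosomal protein genes, in percent, with one point per sample and its replicate number; black marks give the mean and SD. The cytosolic share lies between 0.935 and 1.27% in the 5 glioblastomas and between 0.274 and 0.303% in the 3 normal brains.

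Nearly all members with enough fragments rose. Of 95 members, 66 passed the filter on low counts, and 59 of these were higher in glioblastoma and 1 lower (edgeR, adjusted p under 0.05 after Benjamini-Hochberg correction over 14641 genes). Among all genes tested, 37.1% were higher and 33.9% lower. Scaled to the member total instead of the library, which removes the shared rise by construction, 12 members were higher and 15 lower. Of all 14641 genes tested, that scaling called 1693 higher and 10605 lower. The median log2 fold change of the 66 was 1.70, against 0.06 over all genes tested, and 56 members had a log2 fold change of at least 1. The 5 tumours lay above the 3 brains for 59 members and below them for 1, where all genes gave 36.1% above and 34.5% below. The filter bears on these counts, since 6 members passed it without reaching its level in all 3 brains: Rpl30, Rpl36, Rps12, Rps25, Rps27 and Rps27a. Of the 60 that reached it in every brain, 54 were higher.

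Most tested genes of both subunits rose. Of 31 tested genes of the large subunit, 27 were higher, 1 lower and 3 did not pass, with a median log2 fold change of 1.65. Of 24 tested genes of the small subunit, 23 were higher, 0 lower and 1 did not pass, with a median of 1.87. All 3 stalk genes were higher. Rps25, a small subunit gene with 135 fragments in tumours and 25 in brains, was the one that did not pass (adjusted p = 0.118, edgeR).

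**Figure D2:**
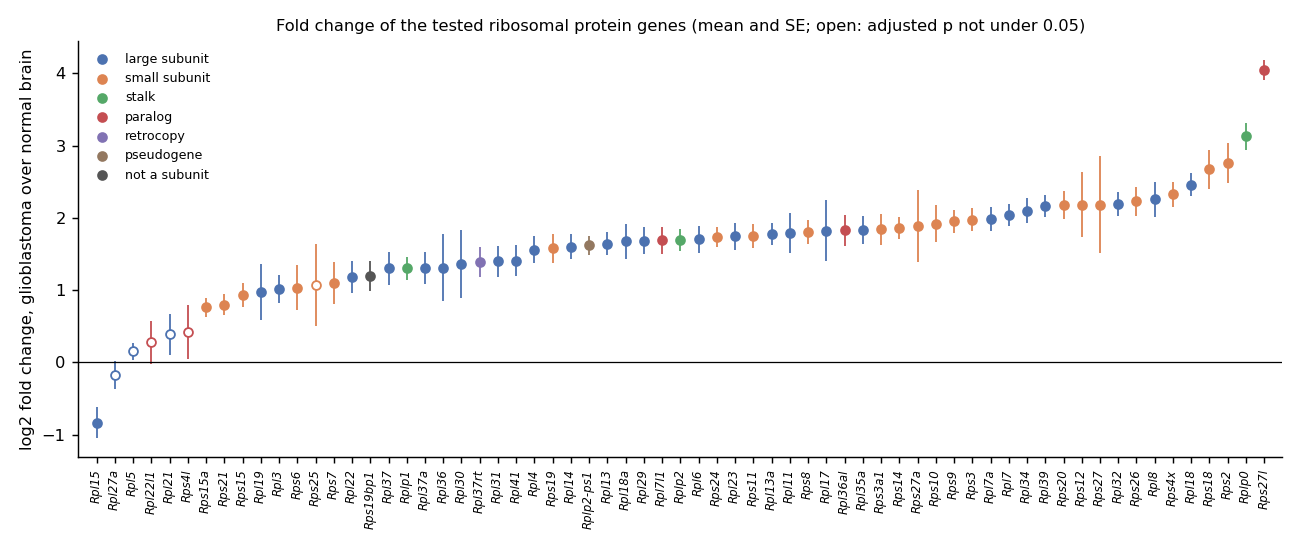
Log2 fold change, glioblastoma over normal brain, of 65 of the 66 tested members in rising order, with SE (edgeR, scaled to the library); colour gives the class, and open points had an adjusted p of 0.05 or more. All but 2 points, Rpl15 and Rpl27a, lie above 0. Scaled to the member total, 15 of the 66 would be called lower, as would 10605 of all 14641 genes tested.

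The stalk of the large subunit recruits the GTPase factors of translation and is formed by Rplp0, its base, and by Rplp1 and Rplp2. Rplp0 had 546.3, 599.1, 693.0, 437.0 and 554.7 CPM in tumours 1 to 5, against 59.0, 70.8 and 64.1 CPM in brains 1 to 3. Every tumour stood far above every brain, with a ratio of 8.75 (log2 fold change 3.13 ± 0.19, SE, 5 tumours against 3 brains; edgeR adjusted p = 2.49e-06). Its partners rose less: the log2 fold change was 1.30 ± 0.16 for Rplp1 (edgeR adjusted p = 9.01e-05) and 1.70 ± 0.15 for Rplp2 (edgeR adjusted p = 1.50e-05). Relative to the member total, Rplp0 was higher by 1.35 ± 0.15 and Rplp1 lower, at -0.47 ± 0.15, while Rplp2 lay at -0.080 ± 0.15 (log2, SE; edgeR adjusted p = 2.51e-05, 0.0132 and 0.639).

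Other large rises came from both subunits. Rps2, a protein of the mRNA entry side of the small subunit, had 130.4, 145.2, 150.0, 88.7 and 121.3 CPM in tumours 1 to 5, against 20.6, 11.8 and 23.7 CPM in brains 1 to 3. The lowest tumour was over 3 times the highest brain, and the log2 fold change was 2.76 ± 0.28 (SE; edgeR adjusted p = 3.84e-05). Rps18, in the head of the small subunit, rose by 2.67 ± 0.27 and Rpl18, of the large subunit, by 2.46 ± 0.16 (log2, SE; edgeR adjusted p = 3.30e-05 and 3.25e-06). Rps4x, which in mice is encoded on the X chromosome, rose by 2.33 ± 0.17, and Rps26, which lies where mRNA leaves the small subunit, by 2.23 ± 0.20 (log2, SE; edgeR adjusted p = 6.69e-06 and 1.76e-05). Relative to the member total, the log2 differences of these members lay between 0.45 (Rps26) and 0.96 (Rps2). They were chosen for the largest rises, so a place above the member total was nearly given by that choice. Of the 50-base words in their annotated transcripts, 21.0% (Rps2), 13.3% (Rps18), 25.7% (Rpl18), 27.8% (Rps4x) and 61.7% (Rps26) occur in no other annotated gene. The part of shared sequence in these values was not tested.

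Per transcript length, Rpl8 and Rplp1 were among the most abundant members. Rpl8, a protein beside the peptidyl transferase centre, had 1606.5, 2044.3, 2372.7, 1138.2 and 1560.4 FPKM in tumours 1 to 5, against 365.4, 373.0 and 361.0 FPKM in brains 1 to 3. The groups did not overlap, although the tumours spread over more than 2-fold (log2 fold change of counts 2.26 ± 0.24, SE; edgeR adjusted p = 4.89e-05). Rplp1 averaged 1483 ± 167 FPKM in tumours (SD, n = 5) and 605 ± 96.0 FPKM in brains (SD, n = 3). In the tumours these levels overlapped, so their order there is within the spread; in the brains Rplp1 lay above Rpl8 in every sample. Other leading members by FPKM were Rpl4 and Rpl39, which line the exit tunnel, Rpl32, Rps14, Rps3, Rps20 and Rps15. All of these rose, by between 0.93 (Rps15) and 2.19 (Rpl32) on the log2 scale.

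Only Rpl15 was lower among the 66 tested members. Rpl15, which is needed for early steps of large subunit assembly, had 42.7, 40.6, 35.8, 54.2 and 26.3 CPM in tumours 1 to 5, against 66.8, 71.6 and 74.8 CPM in brains 1 to 3. All 5 tumours lay below all 3 brains (log2 fold change -0.83 ± 0.21, SE; edgeR adjusted p = 0.00645), and it stayed lower in each setting tried, including each library left out. Rpl27a, another large subunit gene, had 44.7, 43.3, 41.6, 46.8 and 25.8 CPM in tumours 1 to 5, against 49.2, 42.3 and 45.3 CPM in brains 1 to 3. Its groups overlapped and it did not pass the test (log2 fold change -0.17 ± 0.20, 95% interval -0.62 to 0.28; edgeR adjusted p = 0.453).

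The proteins known to bind Mdm2 differed in their fold change. Rpl5 had 40.6, 36.8, 35.5, 40.8 and 39.6 CPM in tumours 1 to 5, against 34.3, 36.2 and 33.7 CPM in brains 1 to 3. The groups overlapped slightly, and the 95% interval of the log2 fold change, -0.11 to 0.42, lay well under the members' median (0.16 ± 0.12, SE; edgeR adjusted p = 0.263). Rpl11, its partner in the 5S particle, rose by 1.80 ± 0.28, and Rpl23, which also binds Mdm2, by 1.75 ± 0.19 (log2, SE; edgeR adjusted p = 0.000413 and 4.87e-05). Rpl26 was listed at 0 in all 8 libraries. Of the 50-base words in the annotated transcripts of Rpl5, 6.16% occur in no other annotated gene, against 37.8% for Rpl11 and 65.2% for Rpl23, and the part of this in the values was not tested. Rps6, the small subunit protein that the S6 kinases phosphorylate, rose by 1.04 ± 0.31 (log2, SE; edgeR adjusted p = 0.0149), a call that was lost without brain 2 or without brain 3 (edgeR adjusted p = 0.0666 and 0.0643). Rps6 had 10.1, 16.2, 12.2, 10.5 and 9.53 CPM in tumours 1 to 5, against 8.46, 4.04 and 4.64 CPM in brains 1 to 3.

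Some subunit genes have a related copy elsewhere in the genome, and 8 such pairs were examined. Rps27l, which has been described as a p53-inducible gene in human cells, had the largest fold change of all members. It had 98.5, 101.6, 99.7, 98.2 and 90.7 CPM in tumours 1 to 5, against 6.26, 5.34 and 6.13 CPM in brains 1 to 3. The ratio was 16.5 (log2 fold change 4.04 ± 0.14, SE; edgeR adjusted p = 2.25e-07). The highest tumour was 1.12 times the lowest, the smallest such ratio among the tested members, whose median was 1.57. The first 72 coding bases of Rps27l and Rps27 are shown to let the paralogs be told apart, with the 21 differing bases in capitals (GENCODE M21 transcripts):
Rps27l: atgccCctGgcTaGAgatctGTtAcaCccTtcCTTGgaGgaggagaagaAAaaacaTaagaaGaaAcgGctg
Rps27: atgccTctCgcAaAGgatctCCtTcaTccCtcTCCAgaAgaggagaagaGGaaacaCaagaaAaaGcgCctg

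The 252 coding bases of the 2 genes are 76.2% identical. Rps27 itself held 101 fragments in tumours and 9 in brains, all of them on its non-coding RefSeq accession, and its coding accession was listed at 0. Its levels are therefore uncertain, and its call as higher was lost without brain 3 (edgeR adjusted p = 0.0517). The log2 ratio of Rps27l to Rps27 was 5.51 ± 0.277 in tumours (SD, n = 5) and 4.11 ± 1.86 in brains (SD, n = 3). The difference did not pass (exact permutation test, two-sided, adjusted p = 0.214). Rps27 reached the filter's level in 0 of the 3 brains, so the pair entered the test only through the tumours. In brain 2, with 0 Rps27 fragments, the ratio of 6.23 was set by the added 0.5 fragments. The mean and SD of the ratio in brains are therefore uncertain.

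With 5 tumours against 3 brains the smallest two-sided p of the exact permutation test is 0.0357. None of the 4 pairs with both genes tested passed after adjustment over these 4, among which Rps27l to Rps27 is counted. Rps4l and Rps4x differed most, although Rps4l is annotated as a transcribed pseudogene with only a non-coding accession: their log2 ratio was -4.19, -3.59, -3.20, -4.05 and -2.91 in tumours 1 to 5, against -1.95, -1.59 and -1.31 in brains 1 to 3. All 5 tumours lay below all 3 brains (difference -1.97; exact permutation p = 0.0357, adjusted p = 0.143). Rps4l had 8.09 to 21.3 CPM in tumours and 7.27 to 12.5 CPM in brains (log2 fold change 0.42 ± 0.37, SE; edgeR adjusted p = 0.337), while Rps4x was higher. Rpl22l1 averaged 26.8 ± 10.3 CPM in tumours (SD, n = 5) and 22.0 ± 1.21 CPM in brains (SD, n = 3), and did not pass the test (edgeR adjusted p = 0.415). Rpl22, its partner, rose by 1.19 ± 0.22 (log2, SE; edgeR adjusted p = 0.00129), and the ratio of Rpl22l1 to Rpl22 was lower by a log2 difference of -0.94 (exact permutation p = 0.107, adjusted p = 0.143). Rpl7l1 and Rpl7 both rose, by 1.69 ± 0.18 and 2.04 ± 0.15, and their ratio differed by -0.35 (exact permutation p = 0.107, adjusted p = 0.143). Rpl36al rose by 1.83 ± 0.22 (log2, SE; edgeR adjusted p = 8.99e-05), while its X-linked partner Rpl36a held 5 fragments in tumours and 4 in brains. The paralogs known from testis or striated muscle held few fragments or none: Rpl10l was listed at 0, Rpl39l held 6 fragments in tumours and 1 in brains, and Rpl3l held 8 in tumours and 3 in brains. Their partners Rpl39 and Rpl3 rose, by 2.17 ± 0.15 and 1.01 ± 0.19, and Rpl10 was among the genes with too few fragments to test.

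**Figure D3:**
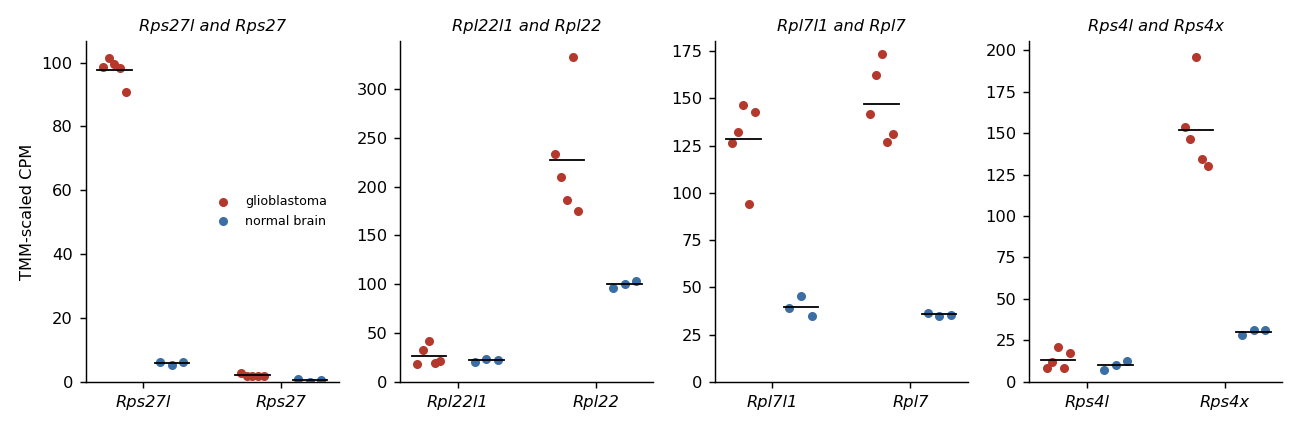
TMM-scaled CPM of the 4 pairs with both genes tested, each sample a point, glioblastoma left of normal brain for each gene, with the group mean as a black line. Rps27l, Rpl22, Rpl7l1, Rpl7 and Rps4x separate the groups, while Rpl22l1 and Rps4l overlap between them.

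Several subunit genes were barely counted. Of 76 subunit genes, 18 were not tested, with 0 to 71 fragments over all 8 libraries, among them Rpl9, Rpl10, Rpl12, Rpl27, Rpl28 and Rps29. Summed, they had 6.91 CPM in tumours (328 fragments) and 1.40 CPM in brains (30 fragments), without TMM factors. Mean CPM was higher in tumours for 15 of the 18. Genes with near-identical copies share sequence with them, so the share of a gene's 50-base words that occur in no other GENCODE gene was set beside its level. Across 76 subunit genes this share and the mean FPKM had a Spearman correlation of 0.497, and for genes with at least 50% of unique words the median FPKM was 107, against 10.1 for the others. Across the 58 tested subunit genes the share and the fold change had a correlation of -0.004. The median log2 fold change was 1.74 in both sets, with 25 of 28 genes higher in the more unique set and 28 of 30 in the other. Genes are not independent replicates, and the part of shared sequence in the levels was not tested.

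**Figure D4:**
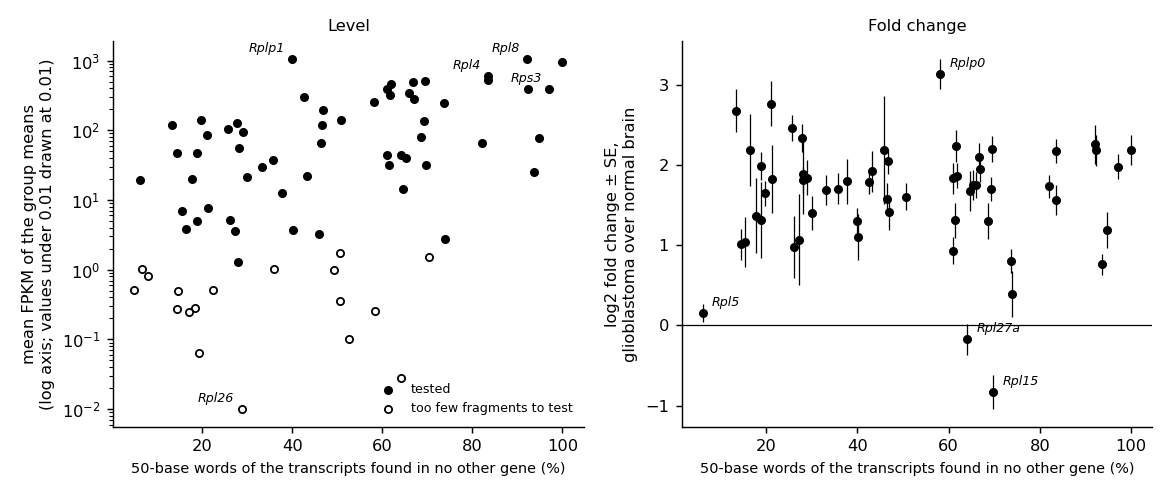
Mean FPKM of the 76 subunit genes (left, log axis) and log2 fold change with SE of the 58 tested ones (right), against the percent of 50-base transcript words found in no other annotated gene; open points had too few fragments to test. FPKM is higher at larger percentages (median 107 at 50% or more and 10.1 below), and the fold change has a rank correlation of -0.004 with it.

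The promoters were compared for shared letters with those of all other genes, which were not matched for level or base content. Matches were not set against fold change, so their relation to the rise was not tested. RefSeq promoters of GRCm38.p6, 300 bases each, matched 69 of 95 members, 56 of them subunit genes. CTTTCC, on the coding strand, was in 20 of 56 subunit promoters (35.7%) and in 14.0% of 26956 other promoters. CCGGAAG, the core that ETS factors bind, was in 22 (39.3%) and 9.06% on either strand. CCATNTT, a YY1 core, was in 17 (30.4%) and 16.3% on either strand. The windows of 60 bases before to 20 bases after the annotated start of 4 genes that rose most or are abundant and of Rpl15, which fell, are given with matches in capitals:
Rplp0 (chr5:115559407-115559486, + strand): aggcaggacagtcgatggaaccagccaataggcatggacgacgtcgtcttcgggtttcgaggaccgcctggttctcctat
Rpl18 (chr7:45718011-45718090, + strand): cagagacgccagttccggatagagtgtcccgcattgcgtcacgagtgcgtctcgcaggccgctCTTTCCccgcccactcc
Rpl4 (chr9:64173327-64173406, + strand): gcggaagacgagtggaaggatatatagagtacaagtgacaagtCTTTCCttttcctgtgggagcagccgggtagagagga
Rps27l (chr9:66946026-66946105, + strand): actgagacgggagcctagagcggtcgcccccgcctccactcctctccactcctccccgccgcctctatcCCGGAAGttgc
Rpl15 (chr14:18270967-18271046, - strand): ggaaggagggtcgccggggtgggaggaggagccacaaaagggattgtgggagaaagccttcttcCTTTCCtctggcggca

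Rpl15 holds CTTTCC near its start, as do Rpl18 and Rpl4, while the Rplp0 window holds none of the 3 motifs. A match is a run of letters and says nothing of a factor's binding.

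The tumours differed among themselves, often in the same order. Tumour 3 had the highest CPM among tumours for 40 of the 66 tested members, tumour 4 the lowest for 37 and tumour 5 the lowest for 20. Tumour 4 also had the lowest summed CPM of dividing-cell markers (589, against 1037 to 1478 in the other tumours) and the highest of astrocyte markers (2702, against 914 to 1474). Their part in the members' levels was not tested. Among brains, brain 2 was highest for 39 and brain 1 lowest for 38. Such counts were not made over all genes tested, and all genes of a library share its scaling factor. The order therefore cannot be called particular to the members. The median SD of log2 CPM was 0.253 among tumours and 0.135 among brains for members, and 0.379 among tumours and 0.154 among brains for all genes.

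Rack1, Rpsa and Fau encode ribosomal proteins and lie outside the symbol rule. Rack1, the scaffold protein on the head of the small subunit, had 1607.4, 2081.6, 2078.1, 1115.5 and 1407.6 CPM in tumours 1 to 5, against 217.9, 242.7 and 231.8 CPM in brains 1 to 3. All tumours lay above all brains (log2 fold change 2.84 ± 0.25, SE). Rpsa rose by 1.85 ± 0.25 and Fau, whose product is cleaved to a small subunit protein, by 2.89 ± 0.53. Fau had at most 2.35 CPM in tumours and 0.289 CPM in brains, so it passed the filter only through the tumours, and its rise supports nothing further.

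Genes that make ribosomes and start translation also rose, though not evenly. The counts below stand beside 37.1% higher and 33.9% lower over all genes tested. Of 40 tested genes of ribosome biogenesis, 36 were higher, 1 lower and 3 did not pass (median log2 fold change 1.34). Ddx21, a nucleolar helicase, rose by 2.43 ± 0.36, and Fbl, which methylates ribosomal RNA, by 2.53 ± 0.52; Fbl had at most 3.88 CPM in tumours and 0.846 CPM in brains, and passed the filter only through the tumours. Rrp12 fell by 0.77 ± 0.14. All 6 tested chaperone and 5S particle genes were higher, and of 11 genes of RNA polymerase I, which transcribes ribosomal RNA, 6 were higher and 5 did not pass; 3 symbols of that list were not matched. Taf1d, a subunit of the factor that selects its promoter, rose most there (2.13 ± 0.24). Nap1l1, whose sums were not whole, had the largest fold change among the 6 (1.48 ± 0.57, edgeR adjusted p = 0.0417). Its groups overlapped, with 1.44 CPM in tumour 2 and 2.86 CPM in brain 3, so its rank is uncertain. Of 19 other TOP mRNAs 18 were higher (median 1.69), among them Eef1a1, the elongation factor, by 2.02 ± 0.17; Eif3f did not pass. The largest rise of that list, 6.47 ± 0.20, was that of Vim, the intermediate filament vimentin, with 3473 to 4570 CPM in tumours and 40.6 to 51.5 CPM in brains. Of 27 initiation factors 18 were higher and 2 lower. Eif6, which keeps unfinished large subunits from joining small ones, rose most (2.17 ± 0.31). The lists share genes: Eif6 is also in the biogenesis list, Npm1 in the biogenesis and TOP lists, and Nap1l1 in the chaperone and TOP lists. Eif3e, Eif3f, Eif3h and Eif4b are in the initiation and TOP lists. Eif4a1 and Eif4a2 encode closely related helicases and went opposite ways. Eif4a2 had 251.1, 361.9, 273.7, 327.3 and 257.8 CPM in tumours 1 to 5, against 608.1, 619.7 and 615.9 CPM in brains 1 to 3 (log2 fold change -1.06 ± 0.15), while Eif4a1 rose by 2.06 ± 0.17. Eif4a1 was named after its values were seen. The sum of Eif4g1, the other gene called lower, was not whole in any library, so its value is uncertain. Under DESeq2, or without genes whose sums are not whole, 1 factor was lower. Of 76 tested mitochondrial ribosomal genes 41 were higher and 5 lower (median 0.49), and the 5 became 1 with upper quartile factors or library size alone, 2 without a filter, 1 without tumour 1, brain 2 or brain 3, 2 without tumour 5 and 3 without tumour 2 or tumour 3. Mrpl52 rose most (1.66 ± 0.18) and Mrps34 fell most, by 0.71 ± 0.28 (edgeR adjusted p = 0.0431). Scaled to the member total, 0 mitochondrial ribosomal genes and 0 biogenesis genes would be higher, and 68 of 76 and 18 of 40 would be lower. Of all 14641 genes tested, 1693 would then be higher and 10605 lower.

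**Figure D5:**
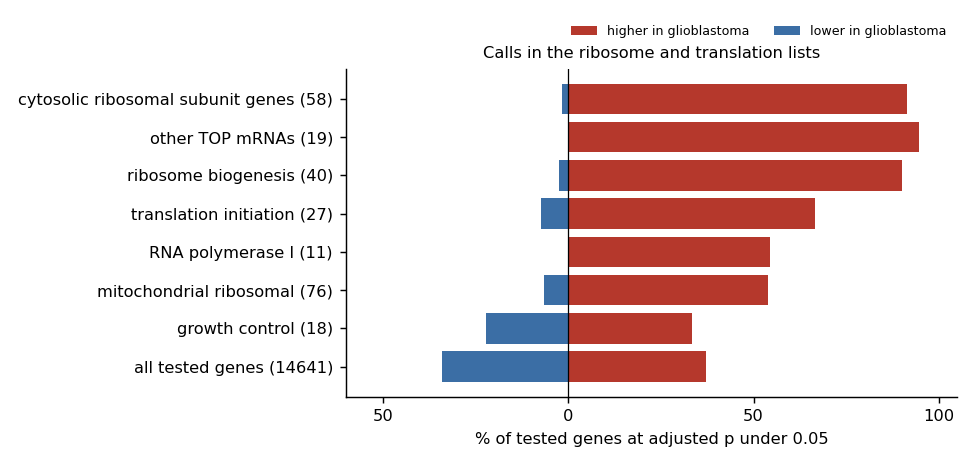
Percent of tested genes (number in brackets) at an adjusted p under 0.05 in each list, higher in glioblastoma to the right and lower to the left, with all genes tested in the lowest row; values are scaled to the library. Cytosolic subunit genes (53 of 58), other TOP mRNAs (18 of 19) and biogenesis genes (36 of 40) have the longest bars to the right among the rows drawn. The rows of other TOP mRNAs, biogenesis and initiation share some genes, so they are not independent.

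Among growth control genes, 6 of 18 were higher and 4 lower (median log2 fold change -0.25), shares no larger than the 37.1% higher and 33.9% lower of all genes. Myc, the transcription factor that drives ribosome genes, had 14.4, 16.6, 25.2, 11.1 and 18.5 CPM in tumours 1 to 5, against 0.677, 2.16 and 0.954 CPM in brains 1 to 3. All tumours lay above all brains (log2 fold change 3.73 ± 0.45, SE). In brains 1 and 3 Myc lay under the filter's level of 1.32 CPM. It therefore passed the filter only through the tumours, and its rise supports nothing further. Mycn, of the same family, had 2.48, 0, 0.756, 5.53 and 1.21 CPM in tumours 1 to 5, against 6.77, 9.67 and 7.09 CPM in brains 1 to 3. All tumours lay below all brains, but Mycn did not pass the test (log2 fold change -1.89 ± 0.81, SE; edgeR adjusted p = 0.0638). Eif4ebp1, the repressor of initiation that mTOR inactivates, rose by 5.20 ± 0.35, the largest rise among the called genes of the list. Tsc1, which restrains mTOR, fell by 1.42 ± 0.17, the largest fall among the called genes, and Mtor itself fell by 1.21 ± 0.12. Myc, Mycn and Mtor were named after their values were seen.

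Fragments shared with other transcripts give sums that are not whole numbers. Within a tolerance of 0.01 this held for Rpl30, Rpl34, Rpl34-ps1 and Rplp2-ps1, 4.21% of members, against 2.58% of all genes. Left out, these members change the share of fragments to 1.07% in tumours and 0.282% in brains. A whole sum does not show that a gene's sequence is its own. Rpl5, with 6.16% of its 50-base words in no other gene, had whole sums in all 8 libraries. Leaving out sums that are not whole therefore does not remove shared sequence.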

How the data were processed

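RNA-seq was made with TruSeq RNA kits from column-purified RNA, per the labels' protocols. STAR 2.3.0e, Cuffdiff 2.1.1 and mm9 are named in the submitters' processing notes; the sources used here do not state settings, strand or the treatment of reads with several matches. The authors deposited estimated counts of fragments per RefSeq accession and library, per the file headers, with FPKM that the authors scaled. Symbols came from a RefSeq table of GRCm38.p6 for 30474 of 30967 accessions and from GENCODE for 178; 315 kept their identifiers. Counts were summed per gene and rounded.

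The test was edgeR 4.0.16 with TMM factors, its default filter, the robust quasi-likelihood F test with p-values adjusted by Benjamini-Hochberg over 14641 genes and called under 0.05. On simulated data with 200 changed genes it recovered 64.3% of 4-fold and 13.4% of 2-fold changes, and 5% of its calls were false. That is far fewer changed genes than were called here. A gene that did not pass may still differ. CPM is TMM scaled. Paralog ratios used log2 after adding 0.5 fragments, with an exact permutation test over 56 splits. Intervals are 95% and cover counting error only where they belong to shares.

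Members and lists were chosen with earlier results of these data known. Named were the paralog pairs, the 8 largest rises and falls at 10 CPM or more, the 5 Rpl and 5 Rps members highest in FPKM, the stalk, the Mdm2 binding proteins, Rps6, members with sums that are not whole, Rps19bp1, the ribosomal proteins outside the rule and, per list, the largest rise and fall. Other names were chosen after their values were seen, and some genes that the rule takes are not reported here. Alternatives were DESeq2 1.42.0, limma 3.58.1 on FPKM, other scalings and filters, thinning, and samples or genes left out. Calculations used R 4.3.3, pandas 2.3.3 and scipy 1.17.1.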

Additional observations from a re-analysis of the deposited data

Results flagged for a closer look

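Of 42 values checked among the 5 tumours, 2 had a sample set apart from the others, and chance alone sets about 1 in 20 such groups apart. Rps27 had 2.95 CPM in tumour 1, against 1.86 to 1.98 CPM in the other tumours (gap over range 0.888, critical value 0.71). The log2 ratio of Rps27l to Rps27 was 5.03 in tumour 1, against 5.52 to 5.70 in the other tumours (gap over range 0.732). Both rest on the same few Rps27 fragments.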

How the results depend on the processing

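The counts of members called higher and lower stayed within 1.5 times 59 and 1 under DESeq2 (64 and 1), RLE, upper quartile or no factors. The same held with other filters (53 to 65 higher), limma on FPKM, thinning to one depth (56) and without genes whose sums are not whole (56). With each library left out, 56 to 58 members were higher and 1 lower, and the median log2 fold change was 1.65 to 1.80. The share in the members was then 1.05 to 1.13% in tumours and 0.283 to 0.298% in brains; as a share of summed FPKM it was 2.37% in tumours and 0.882% in brains. The median log2 fold change of all genes, 0.06, was 0.18 with upper quartile factors, 0.20 by library size alone and -1.70 by the member total. Scaling to the member total called 1693 higher and 10605 lower of all 14641 genes tested. Among members it gave 12 higher and 15 lower, with a median of -0.079, by its own construction. It turned 35 of the 66 tested members from positive to negative, among them Rpl22 (-0.55), Rpl22l1 (-1.53), Rpl23 (-0.032), Rpl3 (-0.78), Rpl30 (-0.41), Rpl4 (-0.23), Rpl5 (-1.60), Rpl7l1 (-0.086), Rplp1 (-0.47), Rplp2 (-0.080), Rplp2-ps1 (-0.16), Rps15 (-0.84), Rps19bp1 (-0.59), Rps4l (-1.37) and Rps6 (-0.76). The call of Rpl30 was lost without tumour 2 or brain 1 (edgeR adjusted p = 0.0528 and 0.0700). The difference of the log2 ratio with a library left out was -1.19 to -0.70 for Rpl22l1 to Rpl22, -0.44 to -0.24 for Rpl7l1 to Rpl7, 0.72 to 2.45 for Rps27l to Rps27 and -2.14 to -1.81 for Rps4l to Rps4x. For the 18 subunit genes with too few fragments to test, the cause was not tested. No paired analysis was possible because replicate numbers follow the order of the samples and pair none of them.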
